A study of Mus musculus with 214 samples.

Results

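The immunity-related GTPases (IRGs) are a family of interferon-inducible proteins that guard mouse cells against intracellular pathogens. Their transcripts were examined here in livers of mice injected in infancy with N-nitrosodimethylamine (NDMA), a DNA-methylating carcinogen that the liver activates. The 7 genes described, Irgm1, Irgm2, Igtp, Iigp1, Ifi47, Tgtp1 and Tgtp2, were chosen by symbol from 19900 genes measured in either genotype (18647 in WT and 19540 in Mgmt-/- mice), and all 7 were present in both tables. All mice were of the C57BL6 background and carried the RaDR and GPT reporter alleles (RaDR+/+;GPT+/+, called WT here). The second strain in addition lacked Mgmt (RaDR+/+;GPT+/+;Mgmt-/-), which encodes the enzyme that directly removes methyl groups from guanine. Mice received NDMA intraperitoneally at 3.5 mg/kg on postnatal day 8 and 7 mg/kg on day 15 (10.5 mg/kg in total), or saline at the same ages, and liver tissue was taken at Day 1, 2 and 5, Week 10 and Month 10. The authors count these times from exposure, with Day 1 falling 1 day after the second injection. The authors state that litters were assigned to NDMA or saline at birth, and also that control mice were sibling littermates. Litter is not in the labels, so an effect of litter cannot be told apart from one of treatment.

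In order of time, the WT NDMA groups held 26, 8, 8, 8 and 13 mice and the WT saline groups 21, 8, 7, 8 and 10. The Mgmt-/- NDMA groups held 12, 8, 8, 8 and 13 mice and the Mgmt-/- saline groups 12, 7, 6, 8 and 12. Each mouse gave 1 library of reads from transcript 3′ ends, with 150038 to 4791649 reads in WT (median 1710016) and 713584 to 7740710 in Mgmt-/- libraries (median 2347670). Values are reads per gene divided by the library's size factor, set by the authors separately for each genotype. Levels were therefore not compared between genotypes, except for Mgmt itself as a check of the genotype labels. The Mgmt transcript itself stood at 13 to 130 (median 45.8) in WT and at 0 to 9.67 (median 1.15) in Mgmt-/- libraries, and the ranges did not overlap. The lowest albumin value was 25256 in WT libraries and 29809 in all Mgmt-/- libraries but 2. Those 2, both labelled Mgmt-/- saline Day 5 liver, had Alb at 526 and 161 and the kidney transcript Kap at 6147 and 7562. They went against their tissue label and were left out, which left 211 of 213 libraries. A further pair of WT NDMA Day 1 libraries, replicates D209072 and D209077, went against their labelled sex. They were kept, and the WT Day 1 results are also given without them.

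As background, IRG proteins are made in response to interferon gamma, and they bind guanine nucleotides. The effector IRGs, among them Iigp1 (Irga6), Ifi47 (Irgd) and the nearly identical pair Tgtp1 and Tgtp2 (Irgb6), load onto the vacuoles of parasites and bacteria and help to break them. The regulatory IRGs Irgm1, Irgm2 and Igtp (Irgm3) sit on the cell's own membranes and hold the effectors inactive there. Iigp1 is known for being expressed in mouse liver without infection. Interferon gamma in liver comes mainly from NK and T cells, while hepatocytes, Kupffer cells and endothelium all respond to it.

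Of the 7 genes, 6 had a promoter (250 bases before to 50 after the start) in the RefSeq table for GRCm38.p6, all on chromosome 11. The stretches that held 2 motifs linked to interferon signalling are shown because these genes moved together. The searched letters, on both strands, were GAAA, any 2 bases and GAAA again (ISRE, the interferon-stimulated response element) and TTCNNNGAA (GAS, the gamma-activated site). Capitals mark the matches, and 10 flanking bases stand on each side.
Irgm1 (chr11:48871425-48871460, - strand): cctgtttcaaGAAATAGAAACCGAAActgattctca
Irgm2 (chr11:58214892-58214932, + strand): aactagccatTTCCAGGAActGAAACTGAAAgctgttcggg
Igtp (chr11:58199501-58199541, + strand): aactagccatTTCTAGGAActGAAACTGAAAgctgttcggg
Tgtp1 (chr11:48992304-48992344, - strand): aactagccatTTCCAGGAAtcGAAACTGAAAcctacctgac
Tgtp2 (chr11:49064263-49064303, - strand): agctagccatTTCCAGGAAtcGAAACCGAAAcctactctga

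Counted from the RefSeq start, the first motif base lay 30 bases before it in Irgm1, 75 in Irgm2, 45 in Igtp, 88 in Tgtp1 and 81 in Tgtp2. Irgm1 held 2 overlapping ISRE matches and no GAS match, whereas Irgm2, Igtp, Tgtp1 and Tgtp2 each held a GAS match followed after 2 bases by an ISRE match. Ifi47 held neither set of letters in this window. Of all 32851 promoters of 300 bases, 3.44% held the ISRE letters, 8.3% the GAS letters and 0.45% both. The joint form with the spacing read from these genes, GAS letters, any 2 bases and ISRE letters on the same strand, was found in 5 promoters (0.0152%): those of Irgm2, Igtp, Tgtp1, Tgtp2 and Gm12185, whose gene model overlaps Tgtp1 on the same strand and which was too low to be tested. The RefSeq promoter window of Gm12185 (48927133 to 48927432) did not overlap that of Tgtp1 (48992197 to 48992496). These are matches of letters and not measured binding sites, and the RefSeq starts of Irgm1, Irgm2 and Tgtp1 lie within the longer gene spans given next, which begin upstream.

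In the mm10 (GRCm38) gene annotation these 6 genes lie in a pair of clusters on chromosome 11. The first holds Irgm1 (48861968 to 48871683, - strand), Tgtp1 (48985327 to 48994172, - strand), Tgtp2 (49057194 to 49064206, - strand) and Ifi47 (49076587 to 49096974, + strand). The second holds Igtp (58199556 to 58207591) and Irgm2 (58199618 to 58222782), both on the + strand and overlapping. The longest coding transcripts of Tgtp1 and Tgtp2 (2823 and 2810 bases) were 99.79% identical over 2810 aligned bases, and their last 500 bases were identical at all 500 positions. Reads from transcript ends therefore could not be assigned to Tgtp1 or Tgtp2 with certainty, so statements on the pair rest on their summed value.

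IRG transcripts were higher after NDMA in both genotypes from Day 1, and by Day 5 the response was larger in Mgmt-/- than in WT livers. All 5 of the abundant genes (Irgm1, Irgm2, Igtp, Iigp1 and Ifi47) were higher at Day 1 and Day 2 in WT and at Day 1, 2 and 5 in Mgmt-/- mice. In WT mice none of the 5 passed the test at Day 5, Week 10 or Month 10. In Mgmt-/- mice Ifi47 remained higher at Week 10, and Ifi47 and Irgm1 at Month 10. No IRG was lower in any comparison.

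NDMA was compared to saline by limma on log2(value + 1), with terms for sex and for library batch (batch in the labels, run in the tables), over all genes with a mean of at least 5, and genes were called where the Benjamini-Hochberg adjusted p was under 0.05 and the log2 fold change beyond 0.58. In WT mice the shares of all tested genes called higher were, in order of time, 5.01%, 3.33%, 2.22%, 0.0249% and 0%. In Mgmt-/- mice the shares were 9.06%, 12.4%, 11.1%, 7.27% and 4.75%. Against these, 5 of 5 abundant IRGs were called at WT Day 1 and Day 2 and at Mgmt-/- Day 1, 2 and 5. In order of time, 378 of 9028, 249 of 8568, 120 of 8654, 0 of 8048 and 0 of 9254 genes were lower in WT. In Mgmt-/- mice 869 of 10055, 710 of 9469, 624 of 9306, 376 of 9681 and 301 of 10066 were lower. In WT at Day 5, Week 10 and Month 10, limma, edgeR and DESeq2 each called 0 IRGs. For all genes at Month 10 in WT, limma called 0 although 757 had an unadjusted p under 0.05, and edgeR and DESeq2 also called 0. Tgtp1 and Tgtp2 passed the filter on low values only where NDMA raised them, so they are left out of the counts of calls, and their own values are given as a description with no test.

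**Figure D1:**
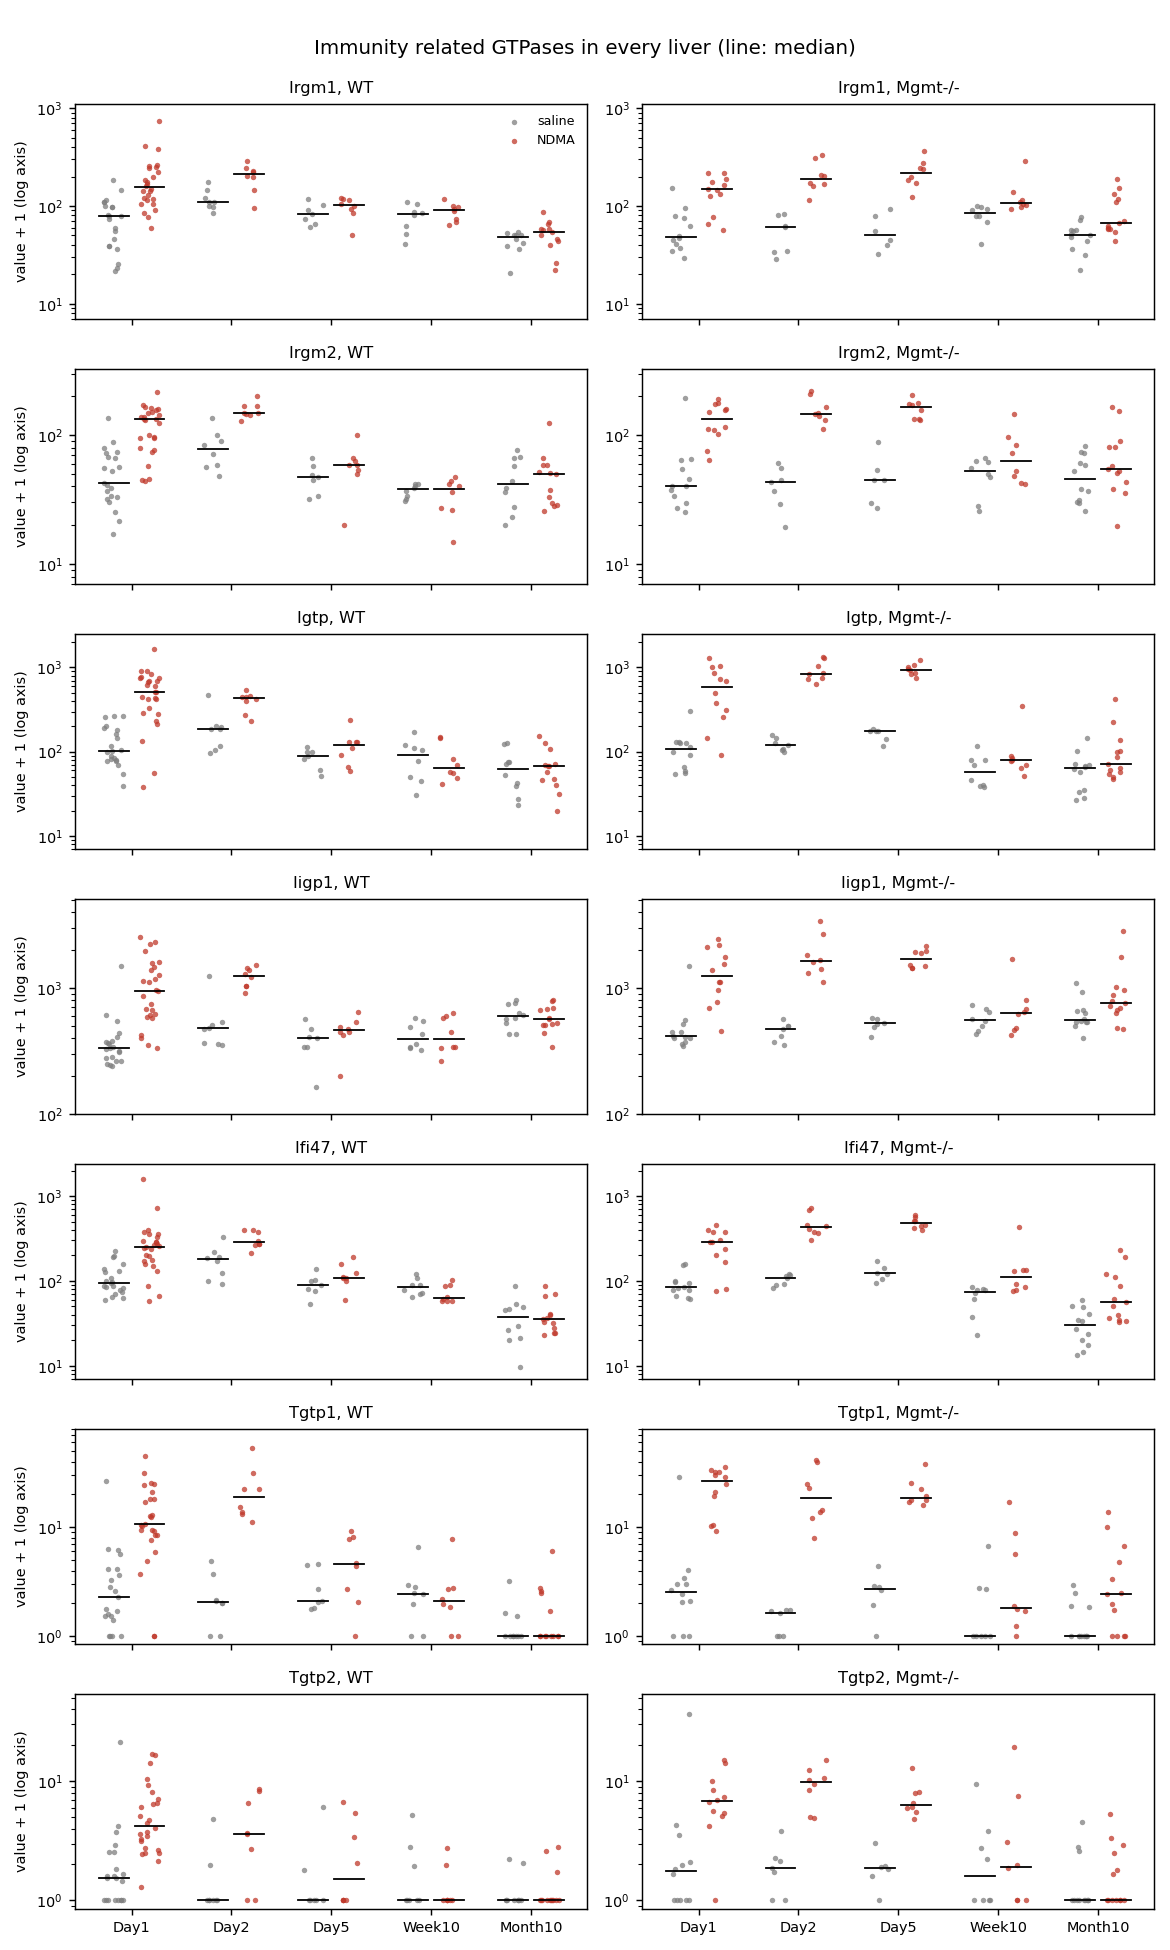
Normalized value + 1 (log axis) of each IRG in every mouse, by collection time, for WT (left) and Mgmt-/- (right), with saline in grey, NDMA in red and a line at each group's median. In Mgmt-/- livers the NDMA and saline points do not overlap at Day 2 and Day 5 for any of the 5 abundant genes, where 6.19% and 6% of all tested genes had every NDMA mouse above every saline mouse.

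Of the regulatory IRGs, Igtp, which holds effectors off lipid droplets and endoplasmic reticulum, had the largest log2 fold changes at Day 1 and 2 in both genotypes and at Day 5 in Mgmt-/- mice. In WT saline livers at Day 1, Igtp ranged from 38.4 to 267 with a median of 101, and in NDMA livers from 37.3 to 1678 with a median of 510. Most of the NDMA group (21 of 26 mice) lay above the highest saline mouse, although the lowest NDMA mice reached down to the lowest saline values. The log2 fold change was 1.95 ± 0.26 (SE, limma adjusted p = 3.17e-07), 43rd of 9028 genes in order of log2 fold change. In Mgmt-/- mice at Day 1 the saline range was 53.5 to 301 (median 106) and the NDMA range 90.5 to 1306 (median 587), with 9 of 12 NDMA mice above all saline mice. The log2 fold change was 2.24 ± 0.33 (adjusted p = 2.34e-05).

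At Day 2, WT saline livers had Igtp at 95.2 to 471 (median 186) and NDMA livers at 231 to 539 (median 428). Only 1 of 8 NDMA mice lay above the highest saline mouse, and the log2 fold change was 1.17 ± 0.24 (adjusted p = 0.00439). In Mgmt-/- livers the same comparison gave 97.6 to 155 (median 119) in saline and 628 to 1326 (median 842) in NDMA mice. The lowest NDMA mouse thus lay more than 4 times above the highest saline mouse. The ratio of means was 7.66 and the log2 fold change 2.89 ± 0.15 (adjusted p = 1.06e-12). At Day 5 the Mgmt-/- saline values were 115 to 183 (median 174) and the NDMA values 743 to 1220 (median 943), again without overlap, with a log2 fold change of 2.57 ± 0.13 (adjusted p = 3.54e-13). WT mice at Day 5 had 49.8 to 114 (median 88.7) in saline and 57.2 to 236 (median 118) in NDMA livers, which overlapped, and the log2 fold change of 0.44 did not pass (adjusted p = 0.354).

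Irgm1, the regulator also known for its role on mitochondria and in autophagy, and Irgm2, which acts on the Golgi, had smaller log2 fold changes than Igtp in these 5 comparisons. Irgm1 had a log2 fold change of 1.27 ± 0.16 at WT Day 1 (adjusted p = 1.66e-08) and of 0.74 ± 0.19 at WT Day 2 (adjusted p = 0.0206). Irgm2 had 1.23 ± 0.20 (adjusted p = 6.41e-06) and 1.02 ± 0.18 (adjusted p = 0.00163) at the same times. Both were called at each of these times. At Mgmt-/- Day 2, Irgm1 was at 28 to 80.9 (median 60.2) in saline and 115 to 334 (median 186) in NDMA mice, and Irgm2 at 18.3 to 59.7 (median 42.2) and 111 to 217 (median 146). Neither gene overlapped between the groups, and the log2 fold changes were 1.95 ± 0.27 and 1.99 ± 0.21. At Mgmt-/- Day 5 Irgm1 was at 31.6 to 92.9 in saline and 123 to 360 in NDMA mice, and Irgm2 at 26.4 to 87.7 and 131 to 205, with log2 fold changes of 2.00 ± 0.24 and 1.84 ± 0.21. WT values at Day 5 overlapped, with log2 fold changes of 0.17 for Irgm1 and 0.27 for Irgm2, and neither passed the test.

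Among the effectors, Iigp1 gave the most reads of the family, with a median of 538 per WT and 767 per Mgmt-/- library. In WT livers at Day 1, Iigp1 was at 239 to 1473 (median 334) in saline and 331 to 2532 (median 950) in NDMA mice, a log2 fold change of 1.43 ± 0.21 (adjusted p = 1.07e-06). At WT Day 2 it was at 351 to 1229 (median 475) and 912 to 1525 (median 1248), a log2 fold change of 1.30 ± 0.18 (adjusted p = 0.000264). A single saline mouse, D215004, was the only one of its group above the lowest NDMA mouse. Mgmt-/- mice showed a clean separation at Day 2, with 349 to 559 (median 474) in saline and 1102 to 3387 (median 1623) in NDMA livers, and at Day 5, with 409 to 570 (median 521) and 1420 to 2128 (median 1695). The log2 fold changes were 1.98 ± 0.21 (adjusted p = 1.55e-06) and 1.73 ± 0.12 (adjusted p = 7.13e-11).

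Ifi47, the second abundant effector, followed a similar course. Its log2 fold change was 1.24 ± 0.21 at WT Day 1 (adjusted p = 2.15e-05), 0.90 ± 0.16 at WT Day 2 (adjusted p = 0.00184) and 0.39 at WT Day 5, which did not pass. In Mgmt-/- mice it was 1.41 ± 0.24 at Day 1. At Mgmt-/- Day 2 the saline values were 80.7 to 121 (median 107) and the NDMA values 303 to 729 (median 428), a log2 fold change of 2.13 ± 0.16 (adjusted p = 3.76e-10). At Day 5 they were 92.3 to 171 (median 122) and 393 to 599 (median 478), a log2 fold change of 1.97 ± 0.13 (adjusted p = 8.64e-11). The groups did not overlap at either time.

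Tgtp1 and Tgtp2 were low, with a median of 1.5 and 1 reads per library in WT and 2 reads each in Mgmt-/- mice over all libraries. At WT Day 2 their sum was at 0 to 7.73 (median 1.1) in saline and 11.8 to 52.6 (median 22.1) in NDMA mice, a log2 fold change of 3.35 ± 0.44. At WT Day 1 the sums were 0 to 45.7 (median 2.45) and 1.16 to 51.8 (median 14) and overlapped, with a log2 fold change of 2.23 ± 0.31. In Mgmt-/- livers the sum was at 0 to 3.55 (median 1.15) in saline and 16.7 to 52.5 (median 24.8) in NDMA mice at Day 2, and at 1.82 to 3.41 (median 2.43) and 18.9 to 49.2 (median 23.6) at Day 5. These sums did not overlap between groups, as was the case in the same direction for 6.19% and 6% of all tested genes. Their log2 fold changes were 3.70 ± 0.34 and 2.96 ± 0.25. At Mgmt-/- Day 1 the sums overlapped, at 0 to 63.2 (median 2.52) in saline and 8.23 to 48.5 (median 31.3) in NDMA mice. The log2 fold change there was 2.85 ± 0.41. They also overlapped at Week 10, at 0 to 14.1 and 0 to 26.4 (0.82 ± 0.66), and at Month 10, at 0 to 3.52 and 0 to 17.2. All these log2 fold changes depend on the pseudocount of 1, since the saline medians lay close to it. As assigned by the authors, Tgtp1 at WT Day 2 was at 0 to 3.86 in saline and 10.1 to 52.6 in NDMA mice, and Tgtp2 at Mgmt-/- Day 2 was at 0 to 2.84 and 3.89 to 14.

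**Figure D2:**
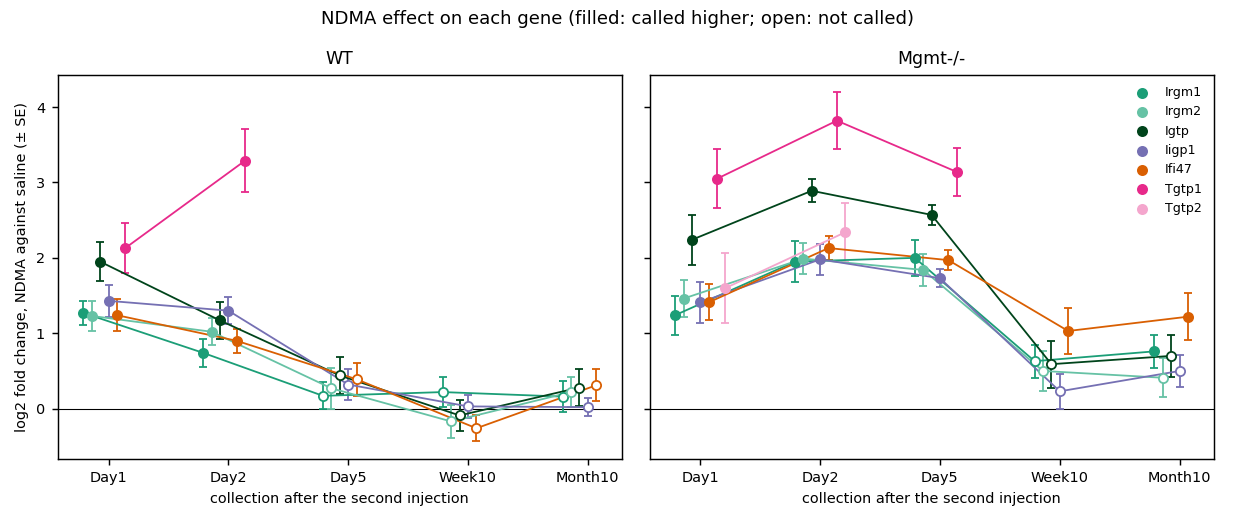
Log2 fold change of NDMA compared to saline (± SE, on log2(value + 1)) of each tested IRG at each time, for WT (left) and Mgmt-/- (right), with filled points for calls and open points for values that did not pass. Points of Tgtp1 and Tgtp2 are a description whatever their fill, since these genes passed the filter only where NDMA raised them. In WT the abundant genes lie at 1.23 to 1.95 at Day 1 and at 0.17 to 0.44 at Day 5, whereas in Mgmt-/- they lie at 1.73 or above at Day 5.

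Whether the response differed between genotypes was tested directly, by the genotype by treatment term of edgeR on whole reads (adjusted p under 0.05). Whole reads were not recovered in 4 libraries, which left 5 of 8 WT saline mice at Day 2 and 11 of 12 Mgmt-/- NDMA mice at Day 1 in this test. This term was larger in Mgmt-/- mice for 0.0189%, 2.57%, 1.42%, 3.68% and 1.03% of all genes, in order of time. At Day 1 no IRG passed, and Igtp had a difference in log2 fold change of 0.22 (adjusted p = 0.932). At Day 2 Igtp responded more in Mgmt-/- mice by 1.77 (adjusted p = 0.00108) and Ifi47 by 1.25 (adjusted p = 0.00412). Irgm1 (1.07, adjusted p = 0.0683), Irgm2 (0.91, adjusted p = 0.0598) and Iigp1 (0.87, adjusted p = 0.097) did not pass at that time.

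By Day 5 all 5 abundant IRGs responded more in Mgmt-/- livers. The differences in log2 fold change were 1.98 for Igtp (adjusted p = 9.25e-06), 1.73 for Irgm1 (adjusted p = 0.000239), 1.49 for Ifi47 (adjusted p = 0.000348), 1.44 for Irgm2 (adjusted p = 0.00748) and 1.41 for Iigp1 (adjusted p = 0.000211). At Week 10 Ifi47 alone passed (1.35, adjusted p = 0.0223), and at Month 10 no IRG did (Ifi47 1.18, adjusted p = 0.147). At Day 2, Day 5 and Week 10 the genotypes were in separate batches, and an effect of genotype cannot be told apart from one of batch.

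The change of the response over time was tested within each genotype. In Mgmt-/- mice the NDMA effect was smaller at Week 10 than at Day 5 for Igtp (by -1.98 ± 0.50 on the log2 scale, limma adjusted p = 0.00949), Iigp1 (-1.50 ± 0.38, adjusted p = 0.00936) and Irgm1 (-1.36 ± 0.42, adjusted p = 0.0464, and 0.0502 without the batch term), where 1.46% of all genes showed a smaller effect. The fall of Ifi47 (-0.95) did not pass (adjusted p = 0.325), nor did that of Irgm2 (-1.34, adjusted p = 0.0684). No IRG passed the test between Day 1 and Day 2 (0.0198% of all genes did), between Day 2 and Day 5 (0.00991%) or between Week 10 and Month 10 (1.06%) in Mgmt-/- mice. In WT mice no step passed for an IRG, against 1.71%, 0.022%, 1.01% and 0% of all genes for the successive steps, the last with 558 genes at an unadjusted p under 0.05. The WT calls of Day 2 were thus lost at Day 5, while the fall itself was tested and did not pass. In Mgmt-/- mice Day 2 and Day 5 were in batch 191212Eng and Week 10 and Month 10 in batch 200803Eng, so the smaller effect at Week 10 cannot be told apart from batch.

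NDMA was also compared to saline within each library batch, with no test of the difference between batches. At WT Day 1, Igtp had a log2 fold change of 2.57 ± 0.38 in batch 191212Eng and 2.12 ± 0.26 in 210901Eng, and 0.52 ± 0.76 in 200803Eng. In the last batch the 4 saline mice were at 38.4, 79.9, 116 and 266, and the NDMA mice at 37.3 to 284 with a median of 224, so that they overlapped. No IRG was called in it, and of all genes 0 (0%) were called by limma (264 at an unadjusted p under 0.05). The pair of libraries that went against their labelled sex belonged to it and had the lowest Igtp values of the WT NDMA Day 1 group, 37.3 and 54.3. Without them the batch gave a log2 fold change of 1.34 for Igtp (adjusted p = 0.398) and still no IRG was called. Over all 3 batches, without that pair, the 5 abundant IRGs were again called, with log2 fold changes of 1.35 for Irgm1, 1.35 for Irgm2, 2.15 for Igtp, 1.55 for Iigp1 and 1.36 for Ifi47.

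At Mgmt-/- Day 1, Igtp had a log2 fold change of 2.81 ± 0.20 in batch 191212Eng and 1.09 ± 0.68 in 200803Eng. In the latter the saline mice were at 53.5, 54.3, 57.5 and 301, and the NDMA mice at 90.5, 145, 260 and 315. One saline mouse, D209090, thus lay within the NDMA values, and no IRG was called, while 2.64% of all genes were called higher. At WT Day 2 each batch held 1 sex. The male batch (200710Eng) had Igtp at 95.2, 105, 116 and 186 in saline and 274, 398, 418 and 443 in NDMA mice, a log2 fold change of 1.63 ± 0.19, and the 5 abundant IRGs were called, as were 5.28% of all genes in the higher direction. The female batch (200724Eng) had 186, 195, 203 and 471 in saline and 231, 439, 461 and 539 in NDMA mice. Its log2 fold change was 0.71 ± 0.36, and limma called 0 of 8541 genes (954 had an unadjusted p under 0.05). Sex and batch cannot be told apart at that time.

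**Figure D3:**
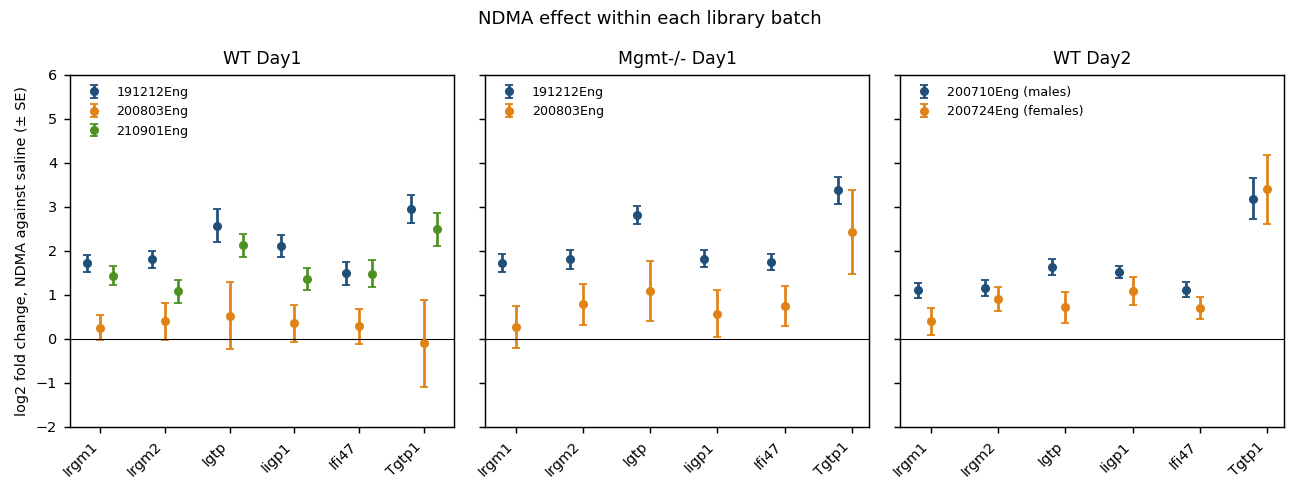
Log2 fold change of NDMA compared to saline (± SE) of 6 IRGs fitted within each library batch, at WT Day 1, Mgmt-/- Day 1 and WT Day 2. The points of batch 200803Eng lie below those of the other Day 1 batches of their genotype for all 6 genes, with Igtp at 0.52 in WT and 1.09 in Mgmt-/- mice.

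At the late times Ifi47 and Irgm1 were the IRGs still called in Mgmt-/- mice. At Mgmt-/- Week 10, Ifi47 was at 21.9 to 83.1 (median 73.7) in saline and 74.1 to 427 (median 112) in NDMA mice, a log2 fold change of 1.03 ± 0.31 (adjusted p = 0.0287). The call was lost without NDMA mouse D209006 (0.78, adjusted p = 0.065) or without saline mouse D209028 (0.96, adjusted p = 0.0591). Irgm1 had a log2 fold change of 0.63 ± 0.22 and did not pass (adjusted p = 0.0698). At Mgmt-/- Month 10, Ifi47 was at 12.5 to 58.8 (median 29.2) in saline and 31.9 to 229 (median 56.1) in NDMA mice, a log2 fold change of 1.22 ± 0.31 (adjusted p = 0.0109), 194th of 10066 genes. Irgm1 was at 21.4 to 76.7 (median 50) and 43 to 186 (median 66.6), a log2 fold change of 0.76 ± 0.22 (adjusted p = 0.0224). Without saline mouse D209013 the Irgm1 call was lost (0.65, adjusted p = 0.0502). Igtp (0.70, adjusted p = 0.107), Iigp1 (0.50, adjusted p = 0.129) and Irgm2 (0.41, adjusted p = 0.347) did not pass at Month 10.

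At Month 10 the Ifi47 response in Mgmt-/- mice differed between the sexes. The 5 saline males had Ifi47 at 12.5, 13.6, 16.5, 19.1 and 25.8, and the 6 NDMA males at 49.9 to 229 with a median of 98.7. The groups of males did not overlap, as was the case for 3.3% of all tested genes in the same direction. Saline females were at 22.5 to 58.8 (median 39.8, n = 7) and NDMA females at 31.9 to 119 (median 35.8, n = 7), which overlapped. The log2 fold change was larger in males by 2.37 ± 0.46 (limma adjusted p = 0.0164), whereas the sex by treatment term passed for 0.338% of all genes at this time. It was 2.55 ± 0.35 in males alone (adjusted p = 0.000609) and 0.18 in females alone (adjusted p = 0.741), in fits added after seeing the data. Without saline mouse D209014 the difference was 2.27 and no longer passed (adjusted p = 0.0523).

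In males alone at Month 10, a fit added after seeing the data, Irgm1 (1.25, adjusted p = 0.0254) and Irgm2 (1.19, adjusted p = 0.028) also rose. In that fit 4.21% of all genes were called higher. The sex difference itself did not pass for Irgm1 (0.87, adjusted p = 0.244) or Irgm2 (1.38, adjusted p = 0.114). At Week 10 the 4 NDMA males had Ifi47 at 131, 132, 132 and 427 and the 4 NDMA females at 74.1, 76.6, 82.8 and 92.1. Saline males were at 21.9, 60.5, 76.4 and 78.7 and saline females at 36.4, 71, 77.5 and 83.1. The sex difference of 1.37 in the Ifi47 response at Week 10 did not pass (limma adjusted p = 1), and 0.114% of all genes passed this test. No sex by treatment call was made for any gene by limma at Mgmt-/- Day 1, 2 or 5, WT Day 1 or WT Month 10 (0% each; 715, 255, 443, 155 and 544 genes respectively had an unadjusted p under 0.05).

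**Figure D4:**
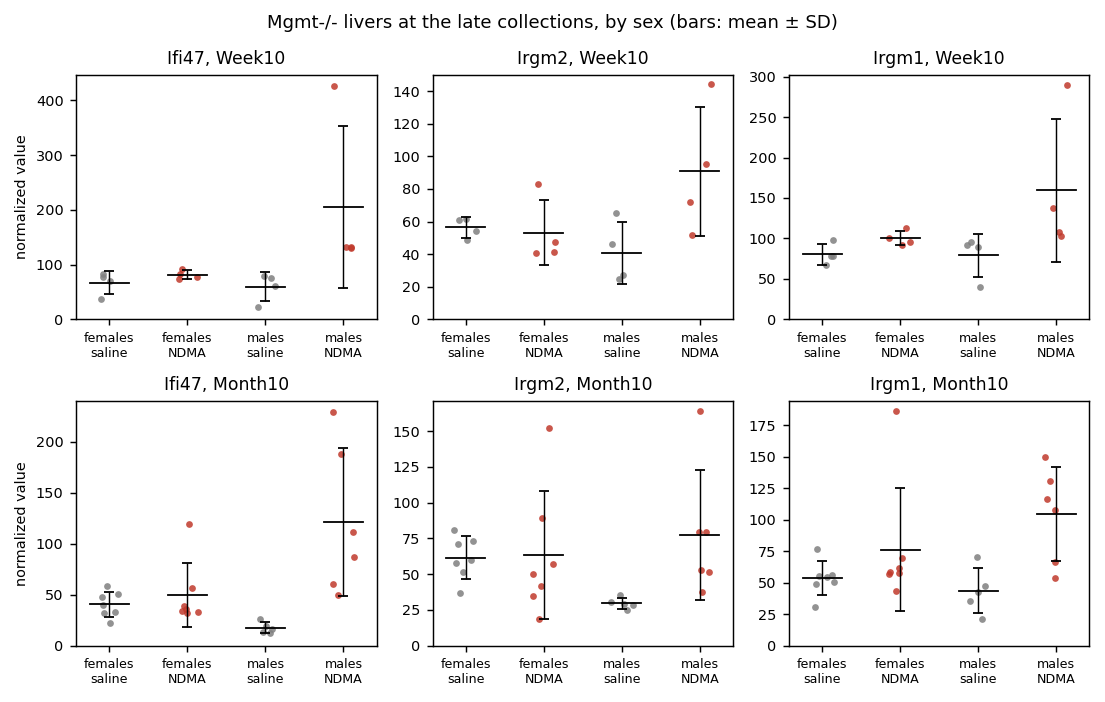
Normalized value of Ifi47, Irgm2 and Irgm1 in each Mgmt-/- mouse at Week 10 and Month 10, split by sex and treatment, with mean ± SD. The NDMA males at Month 10 have Ifi47 at 49.9 to 229, all above the saline males at 12.5 to 25.8, whereas the females overlap.

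Ifi47 also declined with age in untreated livers. Between saline mice of Day 1 and Month 10 its level differed by -1.45 ± 0.33 in WT (limma adjusted p = 0.000113) and by -1.18 ± 0.32 in Mgmt-/- mice (adjusted p = 0.00115) on the log2 scale. Such declines were common, with 21.2% of all WT and 25.7% of all Mgmt-/- genes called lower. In WT mice Irgm1 was lower by -0.61 (adjusted p = 0.0467), while Iigp1 was higher by 0.67 (adjusted p = 0.0437), where 29% of all genes were called higher. The Month 10 response of Ifi47 thus started from a lower saline level, at a median of 29.2 compared to 82.8 at Mgmt-/- Day 1.

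Some mice were the highest of their group for several IRGs at once. WT saline Day 2 mouse D215004 had the highest value of its group for 7 of 7 genes, as did Mgmt-/- NDMA Day 5 mouse D389054. Mgmt-/- NDMA Week 10 mouse D209006 and Mgmt-/- saline Day 1 mouse D209090 led for 6 of 7, and WT NDMA Day 1 mouse D279045, Mgmt-/- saline Day 5 mouse D389048 and Mgmt-/- NDMA Month 10 mouse D209046 for 5 of 7. Of these 7 mice, D215004, D209090 and D389048 received saline.

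Other IRG-like genes were read from a list of 11 symbols, 10 of them in the tables. Gm12250 (Irgb10), an effector that attacks bacterial membranes and that the annotation lists as a processed pseudogene, rose at every time in Mgmt-/- mice. Its mean at Mgmt-/- Day 2 was 12 ± 4.32 (SD, n = 7) in saline and 191 ± 94.7 (SD, n = 8) in NDMA mice. The log2 fold changes from Day 1 to Month 10 were 3.08, 3.86, 3.83, 1.25 (adjusted p = 0.0171) and 1.39 (adjusted p = 0.017). In WT mice they were 2.76, 2.60 and 2.01 at Day 1, 2 and 5, the last still called when the 5 abundant IRGs were not, and -0.29 and 0.45 later without a call. Gm4841, which also passed the filter on low values through its NDMA group, was at 0.297 ± 0.372 (SD, n = 7) in saline and 96.8 ± 45.3 (SD, n = 8) in NDMA mice at Mgmt-/- Day 2. Gm4951 had 303 ± 51.2 (SD, n = 7) and 328 ± 94.1 (SD, n = 8) in the same groups (log2 fold change 0.09, adjusted p = 0.712). Of the tested genes of this list with a saline mean of at least 5, 2 of 3, 2 of 4 and 2 of 3 were higher at Mgmt-/- Day 1, 2 and 5, and 1 of 3, 1 of 4 and 1 of 4 in WT mice. The shares of all genes called higher were 9.06%, 12.4% and 11.1% in Mgmt-/- and 5.01%, 3.33% and 2.22% in WT mice.

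The guanylate binding proteins (Gbps), large GTPases that act with the IRGs at pathogen vacuoles, were higher in most tests at the early times. Of 11 Gbps, those with a saline mean under 5 were left out of the counts, since they were tested only through high NDMA values. Of the others, 6 of 8, 5 of 5, 7 of 7, 3 of 7 and 0 of 7 were higher in Mgmt-/- mice from Day 1 to Month 10, and 5 of 7, 5 of 7, 1 of 5, 0 of 5 and 0 of 4 in WT mice. The shares of all genes called higher were 9.06%, 12.4%, 11.1%, 7.27% and 4.75% in Mgmt-/- mice. In WT mice these shares were 5.01%, 3.33%, 2.22%, 0.0249% and 0%. Gbp2 went from 19.2 ± 4.65 (SD, n = 7) in saline to 418 ± 203 (SD, n = 8) in NDMA livers at Mgmt-/- Day 2. Its log2 fold changes in Mgmt-/- mice were 3.21, 4.28, 3.96, 1.05 and 0.39 in order of time.

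Among genes of the interferon gamma pathway, Irf1, a transcription factor that interferon gamma induces, rose at WT Day 1 (log2 fold change 1.14) and at Mgmt-/- Day 1, 2 and 5 (0.99, 1.88 and 1.56). It did not pass at WT Day 2 (0.49) or WT Day 5 (-0.66). Ifng itself, the ligand, was below the mean of 5 throughout and not tested. Its mean at Mgmt-/- Day 5 was 1.5 ± 1.64 (SD, n = 8) in NDMA mice, and it was 0 in all 6 saline mice. The receptor gene Ifngr1 was lower at WT Day 2 (-0.74) and higher at Mgmt-/- Week 10 (0.65).

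Type I interferon genes were also called at the late times. Usp18, which dampens type I signalling, had log2 fold changes of 1.22, 1.36, 1.51, 1.37 and 1.16 at the 5 Mgmt-/- times. Irf7 had 1.17, 1.38, 1.78, 0.60 and 0.88, of which Week 10 did not pass (adjusted p = 0.0704). Of the 7 genes in that list, 3, 3, 3, 1 and 3 were higher in Mgmt-/- mice. Of all genes, 9.06%, 12.4%, 11.1%, 7.27% and 4.75% were higher at these times. In WT mice 3 of 7, 2 of 6, 0 of 6, 0 of 7 and 0 of 7 tested genes of the list were higher. There 5.01%, 3.33%, 2.22%, 0.0249% and 0% of all genes were higher. Autophagy conjugation genes, whose products help to bring IRGs to vacuoles, were mostly without a call, and those called lower were Atg16l1 at WT Day 1 (-0.63), Atg10 at Mgmt-/- Day 1 (-0.71), Atg3 and Gabarapl1 at Mgmt-/- Day 2 (both -0.64) and Atg3 at Mgmt-/- Week 10 (-0.73). Sqstm1 was higher at Mgmt-/- Day 5 (0.70).

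**Figure D5:**
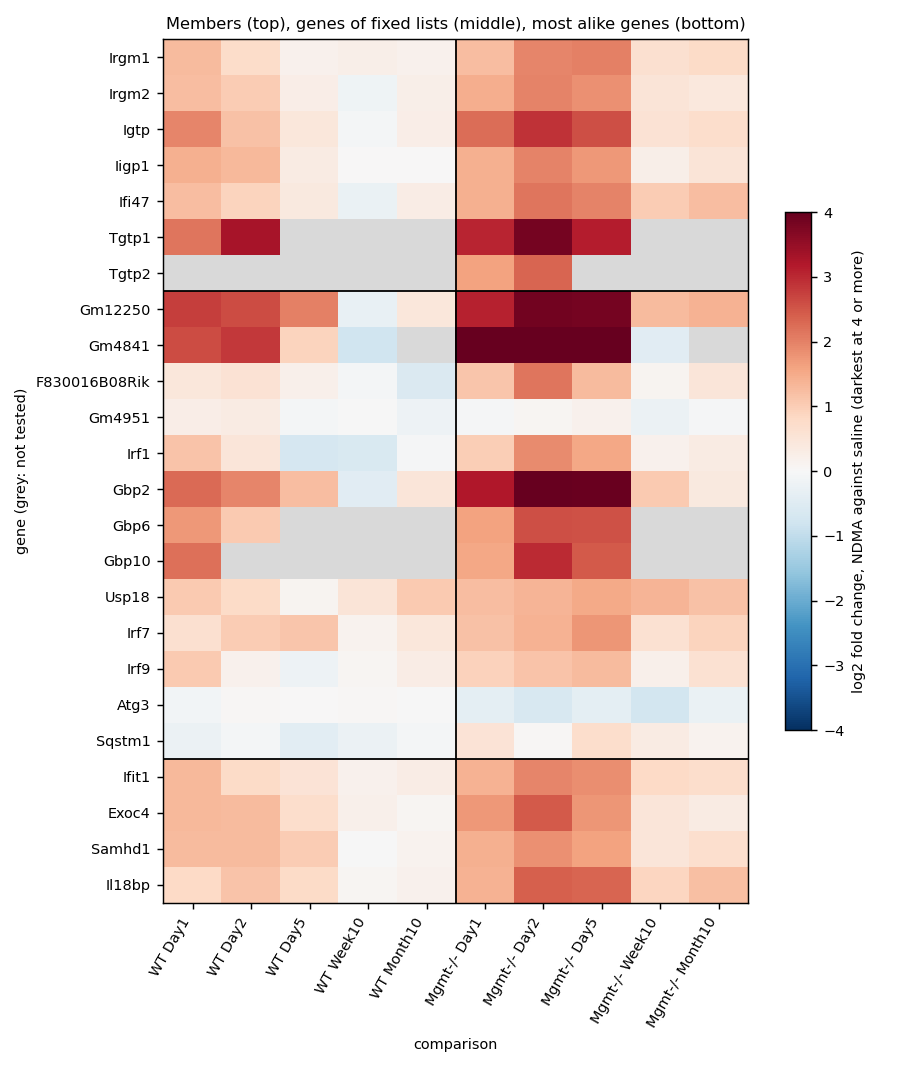
Log2 fold change of NDMA compared to saline in the 10 genotype and time groups for the IRGs, the related lists and the genes with the most similar pattern, as colour with its darkest shade at 4 or more and grey for genes not tested. Gm12250, Gm4841 and Gbp2 are darker than the 5 abundant IRGs at Mgmt-/- Day 2, and the late Mgmt-/- columns keep colour for Usp18, Ifi47 and Gm12250.

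The genes with the pattern most like the IRGs were found by the root mean square difference from a median log2 fold change of IRGs over the 10 comparisons. Among genes tested in all of them, Ifit1 (0.159), Samhd1 (0.264) and Exoc4 (0.288) were closest to the median of the 5 abundant IRGs. Ifit1 is an interferon-induced RNA-binding protein, Samhd1 a nucleotide hydrolase that restricts viruses and Exoc4 an exocyst subunit. Ifit1 had log2 fold changes of 1.40, 1.94 and 1.85 at Mgmt-/- Day 1, 2 and 5, where that median was 1.41, 1.99 and 1.97. This median was a choice made after seeing the data. The median used first, with 7289 genes, included Tgtp1 and Tgtp2 where tested, which was only where NDMA raised them. From it the differences were 0.185 for Ifit1, 0.258 for Exoc4, 0.275 for Samhd1 and 0.324 for Il18bp, a secreted inhibitor of interleukin-18. Il18bp was not among the 5 genes closest to the median of the abundant IRGs.

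Markers of liver cell types also changed after NDMA, some higher and some lower, and their part in the IRG response was not tested. In these bulk liver samples fewer cells of a type and less RNA per cell cannot be told apart. Of T and NK cell markers with a saline mean of at least 5, 4 of 5, 5 of 5 and 4 of 4 were higher at Mgmt-/- Day 1, 2 and 5, 0 of 2 at Week 10, and none was tested at Month 10. The shares of all genes called higher were 9.06%, 12.4%, 11.1% and 7.27% from Day 1 to Week 10. A summed mean was taken over all 11 listed genes in the tables, including those left out of these counts. It went from 69.4 to 200, 58.3 to 367 and 43.3 to 407 between saline and NDMA mice at Mgmt-/- Day 1, 2 and 5. Gzma was the most abundant of them in NDMA mice at these times. Later the sum went from 25.3 to 51.6 and 11.9 to 24. In WT mice the sums of the same 11 genes went from 56.1 to 94.3, 74.6 to 164 and 47.8 to 113 at Day 1, 2 and 5. Among markers with a saline mean of at least 5, 3 of 4, 3 of 5 and 2 of 4 were higher. The shares of all genes called higher there were 5.01%, 3.33% and 2.22%. At Week 10 and Month 10 the WT sums went from 28.7 to 28 and 14.1 to 12.7. Of these markers 2 were tested at WT Week 10, and neither passed, and none was tested at Month 10. Of the 12 listed genes 11 were in the tables, and those too low to be tested included Cd4 and Ncr1.

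Macrophage and Kupffer cell markers, among them Lyz2, were in part higher in both genotypes at the early times and in Mgmt-/- mice also later. Of 12 listed genes, 2, 7, 8, 7 and 5 were higher in Mgmt-/- mice from Day 1 to Month 10, and 3 were lower at Day 1. The shares of all genes called higher were 9.06%, 12.4%, 11.1%, 7.27% and 4.75% at these times. The sum of the 12 genes went from 1754 to 2074, 1439 to 3221, 1514 to 2995, 1118 to 2240 and 703 to 1337 between saline and NDMA mice. Abundant genes weigh most in this sum. At Mgmt-/- Day 1 the median log2 fold change of the list was -0.14. At Mgmt-/- Day 5 the means of Lyz2 (346 to 945) and Cd5l (197 to 648) rose. Those of Clec4f (293 to 206) and Vsig4 (111 to 85.5) fell without a call. In WT mice 4, 2, 2, 0 and 0 were higher and 1, 2, 0, 0 and 0 lower. The shares of all WT genes called higher were 5.01%, 3.33%, 2.22%, 0.0249% and 0%, and 378 of 9028 were lower at WT Day 1. The sum in WT mice was 1388, 1591, 1189, 1165 and 545 in saline and 1786, 1802, 1962, 1121 and 563 in NDMA livers, in order of time. Hepatocyte markers fell in part. Of 5, 3, 3, 1 and 1 were lower at Mgmt-/- Day 1, 2, 5 and Week 10, with Alb at -0.82 and -0.69 at Day 1 and 2, and 1 was lower at WT Day 2 (Alb, -0.92). Of all genes, 869 of 10055, 710 of 9469, 624 of 9306 and 376 of 9681 were lower at these Mgmt-/- times. At WT Day 2, 249 of 8568 genes were lower. At Mgmt-/- Month 10, 1 of the 5 hepatocyte markers was higher, as were 4.75% of all genes. Neutrophil markers were lower in 2 of 3, 1 of 3 and 2 of 3 tested genes at Mgmt-/- Day 1, 2 and 5. Of all genes, 869 of 10055, 710 of 9469 and 624 of 9306 were lower at those times. B cell markers included 1 lower gene at Mgmt-/- Day 1. Endothelial markers moved both ways, with 1, 2 and 2 of 7 genes higher and 4, 1 and 2 lower at Mgmt-/- Day 1, 2 and 5. Later 1 endothelial marker was higher at Mgmt-/- Week 10 and 1 at Month 10, and 1 was lower at WT Day 1. Kidney markers were too low to be tested in any comparison.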

How the data were processed

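The deposited signal values were normalized gene counts: the authors aligned 3′ reads with STAR to GRCm38 (mm10), obtained gene counts with ESAT and divided each library by a DESeq2 size factor, for each genotype separately (versions not given in the sources used here). Libraries were made from 10 ng of RNA. Whole reads were recovered in 209 of 213 libraries (tolerance 0.1 reads). Of 214 labelled samples, 1 had no column and was not analysed here. NDMA was compared to saline per genotype and time with limma 3.58.1 (R 4.3.3, trend and robust) on log2(value + 1), with sex and batch terms, mean at least 5 and Benjamini-Hochberg adjustment over all genes. edgeR 4.0.16 tested genotype by treatment on whole reads; edgeR and DESeq2 1.42.0 were alternatives. Replicates are separate mice. Named genes were the 7 members, fixed lists and the 5 genes of most similar pattern, of which 1 is not reported here. The members and lists were chosen with earlier results of these data known. On simulated data limma recovered 94% (WT Day 1), 62% (Mgmt-/- Day 2) and 54% (Mgmt-/- Week 10) of genes changed by 1 on the log2 scale.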

Additional observations from a re-analysis of the deposited data

Results flagged for a closer look

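Single mice stood far from the rest of their group in 18 of 91 sets of 1 gene in 1 group of 4 to 10 mice, by Dixon's gap ratio, which chance passes in about 1 of 20 sets of normal values. Because IRGs of 1 mouse move together, these sets are not independent. That rate does not hold for sets of Tgtp1 and Tgtp2 at a few reads, and reads of this pair cannot be told apart. In the Mgmt-/- NDMA Week 10 group, mouse D209006 had Irgm1 at 290 (next mouse 137), Igtp at 344 (88.6), Iigp1 at 1701 (795) and Ifi47 at 427 (132), and mouse D209005 had Tgtp2 at 18.5 (6.57). In the Mgmt-/- saline Week 10 group, D209004 had Tgtp1 at 5.66 (1.78) and Tgtp2 at 8.48 (2.8). In the Mgmt-/- NDMA Day 5 group, D389054 had Tgtp1 at 37.3 (24.2) and Tgtp2 at 11.8 (7.17).

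Among WT mice, saline Day 2 mouse D215004 had Igtp at 471 (203), Iigp1 at 1229 (535) and Tgtp2 at 3.86 (0.995). NDMA Day 5 mouse D215016 had Igtp at 236 (129). The other far WT values were all of Tgtp1 or Tgtp2 at a few reads: Tgtp2 at 5.03 (0.814) in saline Day 5 mouse D215012, Tgtp1 at 2.18 (0.624) in saline Month 10 mouse D215027, Tgtp1 at 6.84 (1.75) in NDMA Week 10 mouse D215022, and Tgtp1 at 5.63 (1.96) and Tgtp2 at 4.22 (1.82) in saline Week 10 mouse D215017.

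The NDMA effect differed between groups in 12 tested cases, all on the log2 scale. It was larger in Mgmt-/- than in WT mice at Day 2 for Igtp (1.77) and Ifi47 (1.25), at Day 5 for Irgm1 (1.73), Irgm2 (1.44), Igtp (1.98), Iigp1 (1.41) and Ifi47 (1.49), and at Week 10 for Ifi47 (1.35). It was larger in males than in females for Ifi47 at Mgmt-/- Month 10 (2.37). It was smaller at Week 10 than at Day 5 in Mgmt-/- mice for Irgm1 (-1.36, no longer passing without the batch term), Igtp (-1.98) and Iigp1 (-1.50).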

How the results depend on the processing

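Of 1160 values for the 5 abundant IRGs under alternatives, 1126 kept their side of the threshold (22 of them changed sign while called in neither fit), 28 lost the call, 6 gained one and 0 called values changed sign. Tgtp1, which is given with no test, had a log2 fold change of -0.11 at WT Day 1 within batch 200803Eng. Of 276 counts of calls, 259 stayed within 1.5 times. The number of IRGs called fell to 0 within batch 200803Eng at WT Day 1 (also, in a fit added after seeing the data, 0 without the pair of libraries against their labelled sex) and at Mgmt-/- Day 1, and to 0 within batch 200724Eng at WT Day 2. At WT Day 5, leaving out libraries under 300000 reads gave 1 (Igtp, 0.60, adjusted p = 0.0465). At Mgmt-/- Week 10 scaling to the same total gave 2, and females or males alone, in fits added after seeing the data, gave 0. At Mgmt-/- Month 10 edgeR gave 4, adding Igtp and Iigp1, and females alone, also a fit added after seeing the data, gave 0. DESeq2 gave 4 of the 5 abundant IRGs at WT Day 2, where Ifi47 did not pass (0.73, adjusted p = 0.0605). Without the batch term, age changes in saline mice were called for 4 of 5 abundant IRGs in WT (Irgm1, Igtp, Iigp1 and Ifi47). In Mgmt-/- mice such changes were called for 2 (Igtp and Ifi47). With Tgtp1 the fits gave 5 in WT and 3 in Mgmt-/- mice. Tgtp1 is given with no test, so it is not counted as a call. The causes were not tested.

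Leaving out 1 mouse at a time (117 fits), the number of the 5 abundant IRGs called was 5 to 5 at WT Day 2, 0 to 1 at Day 5 and 0 to 0 at Week 10, and 5 to 5, 5 to 5, 0 to 1 and 1 to 2 at Mgmt-/- Day 2, Day 5, Week 10 and Month 10. The sex difference of Ifi47 ranged from 2.14 to 2.6. With the 2 kidney-like libraries kept, the 5 abundant IRGs were called at Mgmt-/- Day 5, with Igtp at 3.35. Scaling to the same total moved the median of all genes by 0.19, 0.16, 0.15 and 0.20 at Mgmt-/- Day 1, 2, 5 and Week 10, and the split of higher to lower calls from 911 to 869 into 1635 to 512 at Day 1, 1170 to 710 into 1681 to 413 at Day 2, 1037 to 624 into 1451 to 412 at Day 5 and 704 to 376 into 1162 to 177 at Week 10. No paired analysis was possible because each replicate number belongs to 1 mouse and no number is shared between groups. Depth limits Tgtp1 and Tgtp2, which had a median of 2 reads or fewer per library.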
